A study of Mus musculus with 32 samples.

Results

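C/D box snoRNA genes, 69 of the 24028 gene symbols measured by RNA-seq in this study, were examined in mouse embryonic stem cells (mESCs), wild-type (WT) or labelled Eed-/-, with 1 library per genotype. Members were the symbols that open with Snord and a number, and the values of the 4 symbols listed on several rows were summed, so that 77 of 24525 rows entered. Both samples carry the strain label TT2 and were grown with LIF on gelatin, and the labels name another line for the Eed-/- cells of other assays. EED is the subunit of Polycomb repressive complex PRC2 that reads methylated H3K27, and the study asked how its absence affects DNA methylation and expression of developmental genes. Total RNA was freed of ribosomal RNA, fragmented, made into strand-specific libraries and size-selected for fragments of 200 to 500 bp. The authors deposited FPKM as estimated by Cufflinks, that is, fragments scaled to the mapped fragments of the library and to an effective transcript length in kilobases. For short RNAs this effective length was far below the annotated length, as the values of 1 fragment below show. With 1 library per genotype no test between genotypes was possible, nothing measured the spread between cultures, and values below are given as a description.

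RNA of the targeted gene was not lower in the library labelled Eed-/-. Eed was at 63.0 FPKM in WT and 70.9 FPKM in the other library, a difference of 0.17 on the log2(FPKM + 1) scale. A null allele need not lower the RNA of its gene, and the H3K27me3 data that the study used to check its Eed-/- cells were not analysed here, so the library is called by its label throughout. Markers of pluripotent cells were present in both libraries, with Pou5f1, Nanog, Sox2, Zfp42 and Esrrb between 49.2 and 393 FPKM. Of the fibroblast markers Col1a1, Col1a2 and Thy1, Thy1 was at 0.976 and 6.97 FPKM and the collagens were at or below 0.46 FPKM in both libraries. The depth, recovered from steps in the low values of long transcripts, was about 7220000 fragments in WT and about 6450000 fragments in the library labelled Eed-/-.

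C/D box snoRNAs are short nucleolar RNAs with a C box near the 5′ end and a D box near the 3′ end. The boxes pair up to form the site where the proteins Snu13, Nop56, Nop58 and the methyltransferase fibrillarin bind, and the stretch before a D box pairs with ribosomal or small nuclear RNA and directs methylation of a ribose there. Most mammalian C/D box snoRNAs have no promoter of their own. They lie in introns of host genes, many of which code for ribosomal proteins or other parts of the translation machinery, and are cut out of the debranched intron. Their amount therefore depends on transcription of the host and on protection by the bound proteins.

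The sequences show how much the members share besides their name. Of the 69 members, 56 were found as snoRNA genes under a name listed once in GENCODE vM1, whose assembly NCBIM37 is the mm9 of the authors. Names listed there more than once were not used, so copies that share a name could not be among the 56. Each of the 56 sequences occurs at 1 place in that genome with an exact match. The letters TGATGA (C box) and CTGA (D box) were searched on the RNA strand, without overlap. Both were present in this order in 36 of 56 members (64.3%), against 0 of 34 H/ACA box snoRNA genes, 1 of 1571 miRNA genes and 0.304% of 32851 promoter windows of 80 bases from RefSeq (GRCm38.p6). The 36 members had the C box at a median position of 9 and a median of 5 bases after the D box. A member without TGATGA differs from these letters and was not examined for other forms of the box.

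The members below are shown because the values in the next paragraphs turn on them. Sequences are from NCBIM37, 5′ to 3′ on the RNA strand, with the first TGATGA and the last CTGA in capitals. The first 3 lie in the ribosomal protein gene Rpl13a on chromosome 7, all on the minus strand: Snord32a at chr7:52382752-52382834, Snord33 at chr7:52382234-52382317 and Snord34 at chr7:52381971-52382040.
Snord32a: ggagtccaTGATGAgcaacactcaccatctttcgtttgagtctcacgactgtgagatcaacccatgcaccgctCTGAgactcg
Snord33: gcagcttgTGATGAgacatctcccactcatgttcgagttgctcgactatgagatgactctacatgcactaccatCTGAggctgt
Snord34: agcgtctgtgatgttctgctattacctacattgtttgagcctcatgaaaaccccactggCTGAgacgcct
Next are 2 pairs that share a length in RefSeq and had the same value within each library. Snord1b (chr11:116535462-116535536, plus strand) and Snord96a (chr11:48615534-48615614, plus strand) form the first pair, with 77 bases each in RefSeq, while the GENCODE sequences printed here have 75 and 81 bases.
Snord1b: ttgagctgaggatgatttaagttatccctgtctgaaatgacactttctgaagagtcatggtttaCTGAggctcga
Snord96a: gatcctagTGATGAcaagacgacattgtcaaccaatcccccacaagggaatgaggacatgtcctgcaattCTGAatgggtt
Snord100 (chr10:23505556-23505629, minus strand) and Snord2 (chr16:23109026-23109094, plus strand) form the other, with 68 bases each in RefSeq and 74 and 69 bases as printed.
Snord100: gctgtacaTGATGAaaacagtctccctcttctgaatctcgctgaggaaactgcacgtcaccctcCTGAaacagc
Snord2: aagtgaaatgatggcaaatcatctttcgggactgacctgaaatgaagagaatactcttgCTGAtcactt
Snord49b (chr11:62416581-62416652, plus strand) had the highest FPKM in WT, and Snord47 (chr1:162968213-162968289, plus strand) was listed at 0 in WT only. Snord49b begins with the C box as annotated.
Snord49b: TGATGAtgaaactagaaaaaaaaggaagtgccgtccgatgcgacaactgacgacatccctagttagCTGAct
Snord47: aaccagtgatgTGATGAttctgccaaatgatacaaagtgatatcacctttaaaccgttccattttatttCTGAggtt

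Most C/D box snoRNA genes were not seen at all. 45 of 69 members were listed at 0 in both libraries (65.2%, 95% Wilson interval 53.4 to 75.4%), against 30.0% of all symbols. A further 5 members (7.25%) were at 0 in WT only, against 4.85% of all symbols, and 4 members (5.8%) were at 0 in the library labelled Eed-/- only, against 4.31% of all symbols. The 5 include Snord7, at only 1.53e-06 FPKM in the library labelled Eed-/-. The remaining 15 were above 0 in both. H/ACA box snoRNAs, the class that guides pseudouridylation, are longer, and 11 of 36 (30.6%) were at 0 in both libraries. Of 1081 miRNA genes, whose mature products are far shorter than their precursors, 96.1% were at 0 in both.

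Detection differed between length classes, though not in a single order. The median RefSeq length, the length used for the classes, was 68 bases for C/D box members and 119.5 bases for H/ACA genes. In GENCODE vM1 the medians were 78.5 bases over 56 members and 133.5 bases over 34 H/ACA genes. With those lengths some members would change class, such as Snord12 with 66 bases in RefSeq and 90 in GENCODE vM1. Above 1 FPKM in a library were 10 of 40 members of at most 70 bases (25%), 5 of 9 members of 71 to 80 bases (55.6%), 4 of 15 of 81 to 100 bases (26.7%) and all 4 members longer than 120 bases. Within the first class, Snord70 with 53 bases was the only member shorter than 62 bases above 1 FPKM. Among H/ACA genes the share was 9 of 15 at 101 to 120 bases (60%) and 10 of 13 at 121 to 150 bases (76.9%). The part of the size selection of the libraries in these zeros was not tested.

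**Figure D1:**
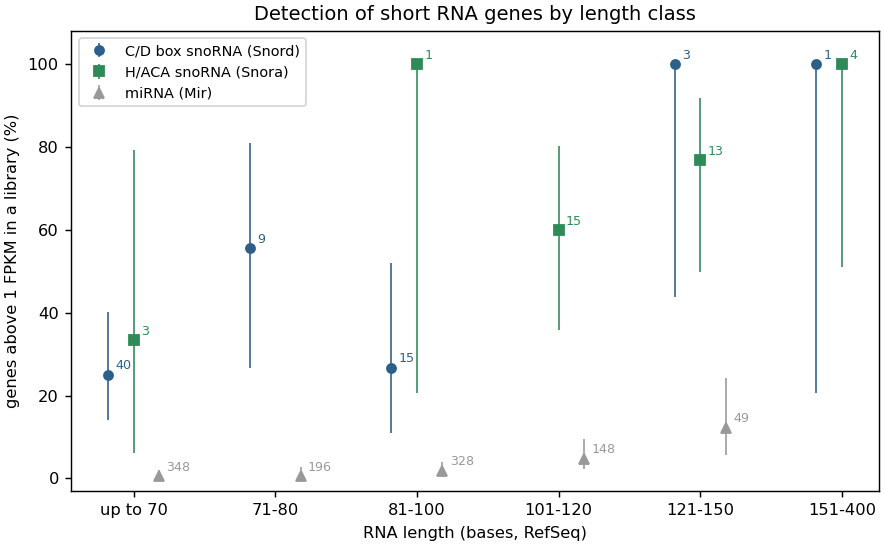
Percentage of genes above 1 FPKM in at least 1 library (y axis) by RefSeq length (x axis, bases) for C/D box snoRNA, H/ACA snoRNA and miRNA genes. Bars are 95% Wilson intervals over genes and small numbers give the genes in each class. All C/D box members longer than 120 bases were above 1 FPKM, against 25% of those of at most 70 bases.

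The few detected members carried very large values. Together the 69 members held 18.4% of the summed FPKM of the WT table and 27.7% of the other. Their own sum was lower in the library labelled Eed-/-, at 1881539 against 2601692 FPKM. The total of the table was 14167707 FPKM in WT and 6799776 FPKM in the other library, and the Cajal body RNA Scarna2 alone went from 9203200 to 2533180 FPKM. The highest mean FPKM was that of Snord49b, then Snord104, Snord34 and Snord32a, followed by Snord1b and Snord96a at the same level. Snord49b was at 431187 FPKM in WT and 265219 FPKM in the library labelled Eed-/-, and it lies in an intron of 2410006H16Rik. Snord34 was at 369211 and 307366 FPKM, and Snord104, the one strongly detected member outside any annotated host, was at 349521 and 332174 FPKM. The mRNA of Pou5f1, a factor of pluripotent cells, was at 393 and 373 FPKM, far below these on the same scale.

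These values stood for a handful of fragments. RNAs of 1 annotated length share 1 effective length in a library, so that their FPKM are whole multiples of what 1 fragment is worth. Snord100 and Snord2, both of 68 bases in RefSeq, were each at 111368 FPKM in WT and at 70053.3 FPKM in the library labelled Eed-/-. Snord1b and Snord96a, both of 77 bases, were each at 177465 and 90584.8 FPKM, and Snord12 in an exon of a 1500012F01Rik transcript had the same 61535.1 and 76841.5 FPKM as Mir7003, an unrelated miRNA gene of 66 bases. The value of 1 fragment was recovered at 38 lengths of 53 to 148 bases in WT and at 36 lengths of 62 to 148 bases in the library labelled Eed-/-. It fell from 131749 FPKM at 53 bases to 21.9 FPKM at 148 bases in WT. At lengths held by 2 or more RNAs, all values were whole numbers within 0.01 at 11 of 13 lengths in WT and at 11 of 11 in the other library. The search that found these values favoured whole numbers at such lengths, so this is not independent support. It could also leave out lengths, and kept 38 of 41 in WT and 36 of 40 in the other library. At lengths held by 1 RNA the number is the one that keeps the curve smooth.

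**Figure D2:**
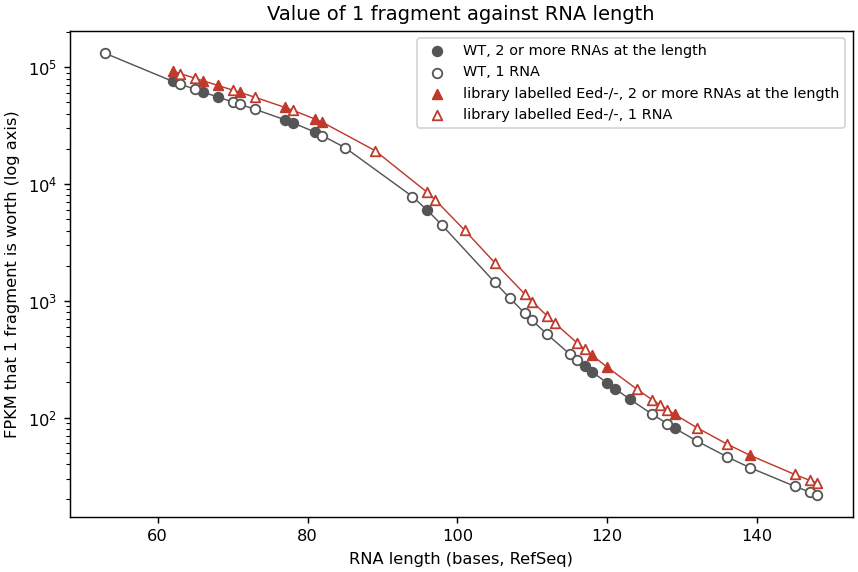
FPKM that 1 fragment is worth (y axis, log scale) against annotated RNA length (x axis, bases) in both libraries. Filled symbols are lengths held by 2 or more RNAs and open symbols lengths held by 1. The WT curve falls from 131749 FPKM at 53 bases to 21.9 FPKM at 148 bases, and the curve of the library labelled Eed-/- lies above it at all 30 shared lengths.

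The curves also differed between libraries. At 30 shared lengths 1 fragment was worth between 1.22 and 1.47 times more FPKM in the library labelled Eed-/- than in WT, where the depths alone give 1.12 times. Equal fragment numbers therefore read as higher FPKM in that library. Snord33 had 2 fragments in each library and was at 51831.7 and 67597.6 FPKM. Snord12 had 1 fragment in each, and its FPKM differed by 0.32 on the log2 scale.

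In fragments, 22 members had between 0 and 18 in a library. Snord15b, one of a pair in the ribosomal protein gene Rps3, had the most, with 17 in WT and 18 in the other library, while its FPKM of 439 and 587 was among the lowest, and it is 145 bases long. Its neighbour Snord15a had 3 and 2. Snord32a had 11 and 3, Snord22 had 9 and 7, Snord104 had 8 and 6, Snord34 had 6 and 4, and Snord49b had 6 and 3. The long members Snord15b, Snord22 and Snord15a thus stood higher by fragments than by FPKM. Among members of at most 100 bases, those highest by FPKM also had the most fragments. Snord1b and Snord96a had 5 and 2 each, and Snord100, Snord2 and Snord35b had 2 and 1. Snord35b came out whole only for a length of 86 bases, 1 less than in RefSeq, where its quotients were 2.00 and 0.997 against 2.19 and 1.08 at 87 bases, a choice made after these quotients were seen. Snord17, the longest member, is outside the lengths covered and was at 56.3 and 30.4 FPKM.

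**Figure D3:**
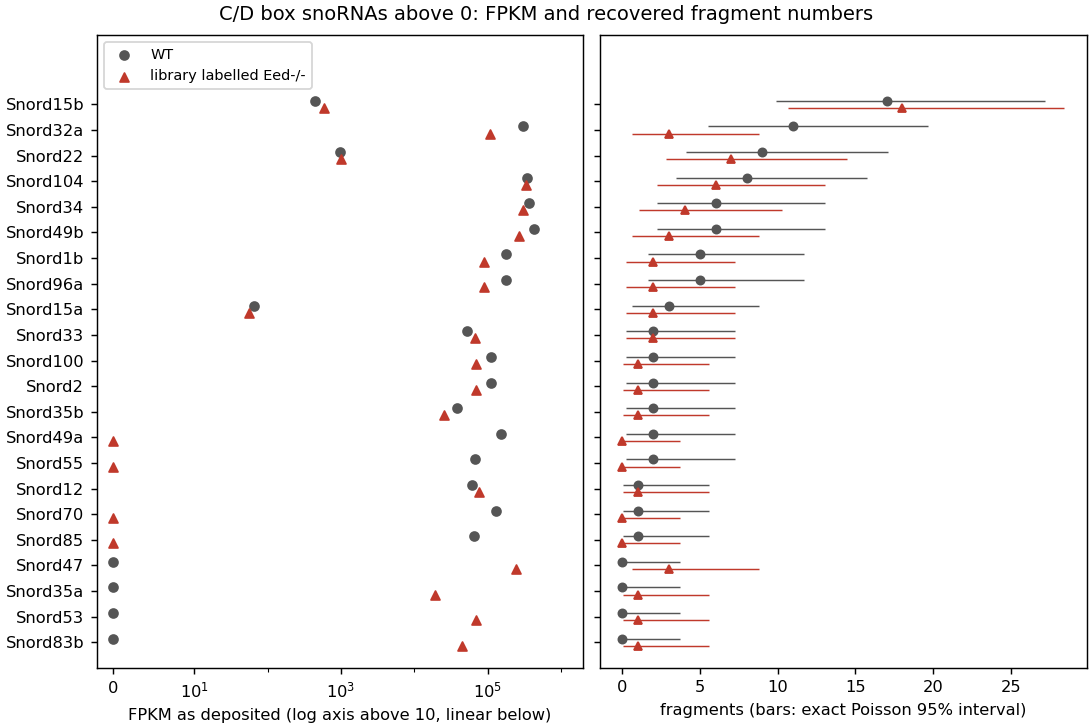
FPKM as deposited (left, log scale above 10) and recovered fragments (right) for the 22 C/D box snoRNAs with recovered numbers. Circles are WT, triangles the library labelled Eed-/-, and bars are exact 95% Poisson intervals for counting error. Snord15b has the most fragments, 17 and 18, at one of the lowest FPKM.

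Apart from Snord7, members at 0 in 1 library had 1 to 3 fragments in the other. Snord49a and Snord55 had 2 fragments in WT, at 151703 and 67167.7 FPKM, and 0 in the library labelled Eed-/-. Snord70 and Snord85 had 1 in WT, at 131749 and 64730.3 FPKM. Snord70 is the least sure of these, since its 53 bases in RefSeq are the end of the curve, where a fit to the next 8 lengths reads 1.05 fragments, and at its 87 bases in GENCODE vM1 the value would be 7.67 fragments. In the other direction Snord47, in the spliced non-coding host Gas5, had 3 fragments in the library labelled Eed-/- at 241317 FPKM and 0 in WT. Snord35a, Snord53 and Snord83b had 1 fragment there, at 19362.8, 70053.3 and 45292.4 FPKM. Snord7 was at 1.53e-06 FPKM, far below 1 fragment, and counts as not detected. A 0 was taken to allow up to 3 fragments, the upper limit at 95% on 1 side, where the bars in the plot of fragments are for both sides and reach 3.69. This treats a deposited 0 as a count of 0 fragments. For short RNAs a 0 can also be a failed estimate, and the limit would then not hold. For the 24 members at 0 in both libraries whose lengths lie on both curves, the limit was between 11336 and 227554 FPKM in WT, with a median of 118546, and between 16420 and 278223 FPKM in the other library.

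On the FPKM scale the 15 members above 0 in both libraries had a median log2(FPKM + 1) difference, library labelled Eed-/- minus WT, of -0.58 (quartiles -0.78 and -0.01 over members), against -0.09 over the 14061 features above 0 in both. It was negative in 11 and positive in 4. The most similar classes were also lower at the median. H/ACA genes stood at -0.52 (17 genes, 13 negative, 5 at least 2-fold lower). Cajal body RNAs (Scarna) stood at -0.37 (6 genes, 5 negative, 2 at least 2-fold lower). For miRNA genes the median was -0.13 (10 genes, 5 negative and 5 positive). None of the 15 was at least 2-fold higher, against 2.87% of those features, and 1 was at least 2-fold lower, against 5.26%. That member was Snord32a, at 306246 and 108189 FPKM, with a difference of -1.50. Next came Snord1b and Snord96a with -0.97 each, Snord17 with -0.87, Snord49b with -0.70, Snord100 and Snord2 with -0.67 each, Snord35b with -0.58, Snord34 with -0.26, Snord15a with -0.25 and Snord104 with -0.07. The 4 positive differences were Snord22 with 0.05, Snord12 with 0.32, Snord33 with 0.38 and Snord15b with 0.42. After the quantile normalization the study used for its heatmap, Snord32a differed by -0.94 and no member reached 2-fold, while the median was -0.38.

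The differences of single members lay within counting error. In fragments scaled to depth, Snord32a was at 0.305 times its WT level, with a 95% interval of 0.0547 to 1.16 from the exact binomial distribution of its 14 fragments. For 22 of 22 members the interval held 1. For members with no more fragments than Snord33, which had 2 in each library, this outcome was fixed. Their intervals hold 1 however the fragments are split, so they say nothing about a difference. Snord15b, the best counted, was at 1.19 times (0.576 to 2.45), and Snord22 at 0.871 times (0.276 to 2.63), where its FPKM had been slightly higher. Both lie within annotated exons, so their fragments cannot be told apart from those of a host transcript. Of the 22 members, 15 had fewer fragments in the library labelled Eed-/-, 5 had more and 2 had the same number. Summed over members there were 85 fragments in WT against 59 in the other library, a depth-scaled ratio of 0.777 (0.548 to 1.10), and without Snord32a the ratio was 0.847 (0.588 to 1.22). The 19 members of at most 100 bases had 56 and 32 fragments, a ratio of 0.64 (0.401 to 1.005), which was 0.655 (0.406 to 1.04) without Snord35b and Snord70. These intervals cover counting error only, since fragments without molecular identifiers may be PCR copies and the spread between cultures is unknown.

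**Figure D4:**
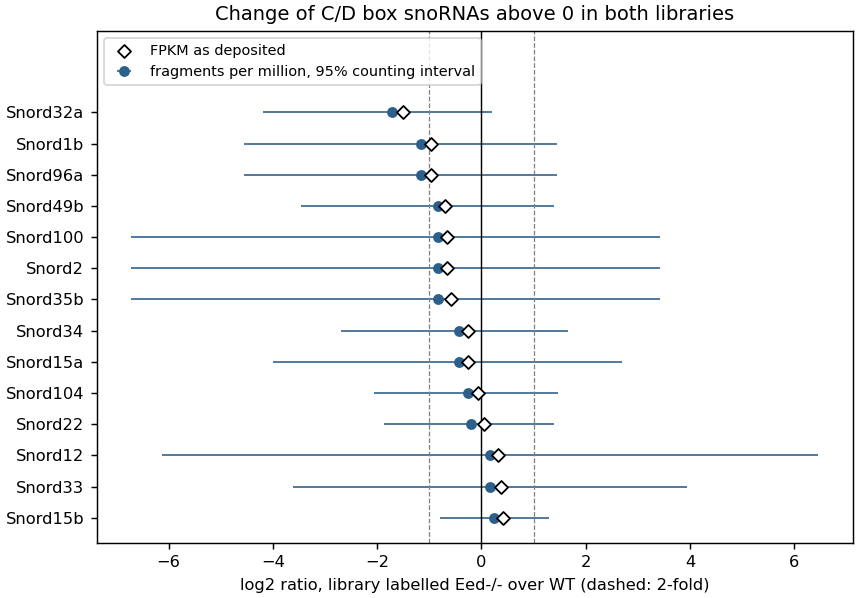
Log2 ratio of the library labelled Eed-/- over WT (x axis) for the 14 C/D box snoRNAs with fragments in both libraries, as FPKM (diamonds) and as fragments scaled to depth with 95% counting intervals (circles and bars). Dashed lines mark 2-fold. Snord32a lies lowest on both scales, and all 14 intervals include 0.

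Host genes place the members in their transcripts. For 64 of 69 members a host was found among 44 genes, for 52 members by position and strand in GENCODE vM1 and for 12 in RefSeq without strand. Of the 56 members placed on NCBIM37, 16 lie wholly within an exon of some annotated transcript on their strand and 4 lie outside genes. The other 36 were counted as intron members, which would include any that overlap an exon only in part. Members in exons were above 0 in 9 of 16 cases (56.2%) and members in introns in 11 of 36 (30.6%), and fragments of a host transcript cannot be told apart from those of a member inside its exon. The 9 exon members with fragments were Snord12, Snord15b, Snord1b, Snord2, Snord22, Snord33, Snord34, Snord47 and Snord96a. They had 47 and 40 fragments, an interval for the depth-scaled ratio of 0.609 to 1.48. The 10 intron members had 28 and 12, with an interval of 0.222 to 0.974, the one sum here whose interval does not hold 1. Without Snord32a it was 17 and 9 fragments (0.233 to 1.41), and without Snord35b and Snord70 it was 25 and 11 (0.219 to 1.04). The split by place was made after the fragments were seen. No allowance was made for the number of sums or for error in the recovered depths.

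The 42 hosts above 0 in both libraries ranged from 1.79 to 1749 FPKM in WT, with a median difference of -0.28. Scaling mattered here, since the median was -0.04 after quantile normalization and -0.12 after median-ratio scaling, where all genes stood at 0.01 and 0.02. The median was -0.30 for the 11 hosts that code for ribosomal proteins and -0.27 for the other 31. 4 of the 42 hosts were at least 2-fold lower and 1 was higher, where 5.26% and 2.87% of all features were. Those lower were the non-coding RNA Snhg14 (11.9 and 2.69 FPKM, -1.81), Gas5 (93.5 and 34.0 FPKM, -1.43), the ribosomal protein gene Rpl13 (146 and 64.1 FPKM, -1.18) and the non-coding RNA Snhg1 (136 and 59.2 FPKM, -1.18). The one higher was Rbmx on chromosome X, an RNA-binding protein gene, at 1.805 and 5.45 FPKM (1.20).

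Members and hosts were set side by side. Gas5 was at 0.363 times its WT level, while Snord47, which lies within an annotated exon there, had 0 fragments in WT against 3 in the other library. Snhg1 was at 0.437 times its WT level, while Snord22, within an annotated exon there, had 9 and 7 fragments. Rpl13a, host of 4 members, was at 422 and 478 FPKM, while Snord32a, Snord33, Snord34 and Snord35a together had 19 and 10 fragments (ratio 0.589, 0.245 to 1.33). Rps3 was at 445 and 356 FPKM with 20 fragments on its 2 members in each library. Most were on Snord15b, which lies within an annotated exon. For 20 of 21 members with fragments and a measured host, the counting interval held the host's FPKM ratio, so a difference between host and snoRNA was not detectable at this depth. The exception was Snord47, whose interval began at 0.463, with no allowance for the 21 intervals compared or for the counting error of the host. With few fragments an interval holds nearly any host ratio, as for Snord12 with 0.0143 to 87.9. For such members the outcome was nearly fixed, so the count of 20 says little about them. Of the other hosts of 3 members, 1810032O08Rik was at 22.01 and 14.9 FPKM with 5 and 2 fragments, all on Snord1b, and 2410006H16Rik was at 85.4 and 53.1 FPKM with 8 and 3. Rpl23a was at 1.79 and 1.62 FPKM and its 3 members were at 0. Ribosomal protein genes have many processed pseudogenes in the genome, so such host values are uncertain.

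**Figure D5:**
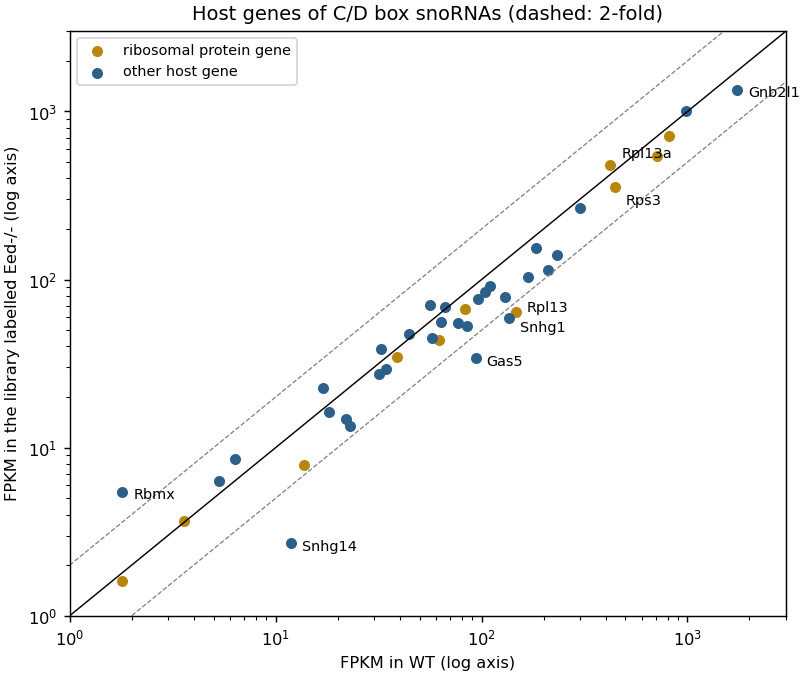
FPKM of the 42 host genes in WT (x axis) and the library labelled Eed-/- (y axis), both on log scales, with ribosomal protein genes in a separate colour. The solid line marks equal values and dashed lines 2-fold. Snhg14, Gas5, Rpl13 and Snhg1 lie below the lower dashed line and Rbmx above the upper one.

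The members from the imprinted Snrpn domain were at 0. Snord64 and Snord116, Snord116l1 and Snord116l2, all of this domain on chromosome 7, where transcription runs from the paternal allele, were at 0 in both libraries. Snrpn itself was at 132 and 32.6 FPKM, a difference of -1.99, and Snhg14 from the same domain was given above. No limit could be set for Snord64 and Snord116, whose lengths are not on both curves. For Snord116l1 and Snord116l2, which share 1 annotated length, a 0 taken as a count allows up to 37948 FPKM in WT and 52533 FPKM in the library labelled Eed-/-. By chromosome, 4 of the 6 members on chromosome 1 were at 0 in both libraries, against 65.2% of all members. The members of 7 of the 17 chromosomes that hold any were all at 0, and these 7 hold 1 to 3 members each and include chromosomes 8 and X.

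A list of 20 snoRNP genes held 5 C/D core proteins, 7 assembly factors, 4 maturation genes and, from the other snoRNP class, 4 H/ACA core proteins. None of the 20 was 2-fold higher or lower, where 2.87% and 5.26% of all features were, so with 20 genes the count of 0 is near the background. Among the C/D core proteins, fibrillarin (Fbl) was at 44.4 and 42.5 FPKM, Nop56 at 110 and 91.6, Nop58 at 234 and 140, Snu13 under its symbol Nhp2l1 at 46.8 and 65.2, and Rrp9, which binds the U3 snoRNA, at 116 and 88.1. Their differences ran from -0.73 for Nop58 to 0.47 for Nhp2l1. Nop56 and Nop58 are also hosts, of Snord110 and Snord57 and of Snord11 and Snord70. The 7 assembly factors had a median difference of -0.60, with Ruvbl2, an ATPase of the R2TP complex that loads the core proteins, lowest at 188 and 99.8 FPKM (-0.91). The 4 maturation genes, among them the lariat debranching enzyme Dbr1, had a median of -0.21, and the 4 H/ACA core genes one of 0.31.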

How the data were processed

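RNA-seq of 1 mESC sample labelled WT and 1 labelled Eed-/- was used. The 30 samples of other assays were not used here. Per the labels, TopHat2 2.0.11 aligned the reads to mm9 and Cufflinks 2.2.1 gave the FPKM per gene symbol that the authors deposited. The annotation and the Cufflinks options are not given in the sources used here. Values of repeated symbols were summed, and differences were taken as log2(FPKM + 1), which understates changes of low genes, among features above 0 in both libraries whose mean FPKM reached 0.1. The threshold was 2-fold. With 1 library per genotype, no test was made.

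Depth was the fragment number that brought low FPKM of 5122 genes with 1 transcript of at least 1000 bases nearest to whole numbers, with 180 bases taken off each length. With it, whole numbers within 0.1 came from 77.3% of 946 low values in WT and from 79.5% of 1048 in the library labelled Eed-/-. The value of 1 fragment was found by a search over length, with up to 25 fragments tried per RNA and lengths from RefSeq (GRCm38.p6). The search favoured a smooth curve and whole numbers at shared lengths, and could skip lengths. Values between lengths were read with a cubic spline. This search was devised after the values were seen and its settings were adjusted on the same tables. Its code was tested on simulated data. Ratios of fragments carry exact binomial intervals at 95%.

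Hosts and sequences came from GENCODE vM1 and NCBIM37, and lengths were available for 68 of 69 members. Members and gene lists were chosen with earlier results of these data known. The text names members above 0, the C/D core genes, and hosts that hold at least 3 members or passed 2-fold. Rps3, Snrpn and Ruvbl2 were named after their values were seen. The software was Python 3.11.15 with scipy 1.17.1, numpy 2.4.6 and pandas 2.3.3, and matplotlib 3.10.9 for plots.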

Additional observations from a re-analysis of the deposited data

How the results depend on the processing

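The median difference of the 15 C/D box snoRNAs, -0.58, stayed negative under every alternative run on FPKM, over 13 to 23 members. It was -0.38 after quantile normalization, -0.42 after median-ratio scaling and -0.26 with a pseudocount of 100. The other alternatives left it at -0.58, and leaving out repeated symbols could not move it. In fragments scaled to depth, a scale chosen after seeing the data, it was -0.63 over 14 members, for which the FPKM gave -0.42. The number at least 2-fold lower, 1 as reported, was 0 after quantile normalization and at a 4-fold threshold, 5 with members at 0 in 1 library kept and 3 in fragments scaled to depth, where Snord1b and Snord96a at -1.16 joined Snord32a. The number at least 2-fold higher, 0 as reported, was 4 with members at 0 in 1 library kept. The median difference of the host genes, -0.28, was -0.038 after quantile normalization and -0.12 after median-ratio scaling and with a pseudocount of 100 (-0.12). The sign of Snord104 changed under both scalings and that of Snord22 in scaled fragments. Leaving out symbols listed more than once changed no count and could not, since the 4 repeated members were at 0 in both libraries. The share of summed FPKM and the number at 0 in 1 library were recomputed in that way only, so their dependence on processing was not tested. No replicate could be left out. No paired analysis was possible because each genotype has 1 library. Depth limits every member, since none had more than 18 fragments in a library.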

Other observations

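Small Cajal body RNAs (Scarna), some of which also carry C and D boxes, lie outside the symbol rule and included larger fragment numbers than any member. Scarna10, a Cajal body RNA that guides modification of small nuclear RNA, had 21 fragments in WT against 16 in the other library, at 1010140 and 973928 FPKM. Scarna17 had 3 and 4, at 227555 and 370964 FPKM. Scarna2 was at 9203200 FPKM in WT and at 2533180 FPKM in the library labelled Eed-/-, the former about 115 fragments at its RefSeq length of 61 bases. That length lies outside the curve of the library labelled Eed-/-, so no fragment number was given there. AF357355 had 0 and 1 fragments, and AF357399 had 1 and 0. The host transcripts Rian and Meg3 of the Dlk1-Dio3 imprinted domain were at 22.6 and 19.3 FPKM and at 6.29 and 6.21 FPKM.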
